A study of Mus musculus with 4 samples.

Results

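The 48 genes described here encode lysosomal proteases, other lysosomal hydrolases, hydrolase cofactors, lysosomal membrane proteins, subunits of the vacuolar proton pump and the transcription factors of the TFEB family. They were taken by symbol from the deposited table of 55356 genes, and each symbol was found once. No measured value entered the rule, although the genes were chosen with earlier results of these data known. Of the 48 genes, 46 had a mean of at least 10 normalized counts over the 4 libraries, among 12483 such genes in the table. *Ctsf* was listed at 0 in every library and *Ctsh* at 0, 0, 1 and 0. *Lamtor4*, a subunit of the Ragulator complex that every cell uses, was likewise listed at 0, 0, 0 and 1, so a 0 in this table can be a failed estimate, and nothing is drawn from the zeros of these genes.

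RNA was sequenced from immortalized bone marrow-derived macrophages (BMDMs) of *MK2*-KO mice. The knockout cells had been transduced by retrovirus with an empty vector that expresses *GFP* (i*MK2*-KO +*GFP*, labelled MK2 knockout and here called *GFP* cells) or with *MK2* (i*MK2*-KO +*MK2*, labelled wt and here called *MK2* cells). Both were sorted for GFP signal after transduction, and both come from the same knockout background. Each line was 1 transduced population, left untreated (UT) or given recombinant murine IL-1α at 5 ng/ml for 1 h, and 1 library was made for each of the 4 conditions. With no replicate there is no test, and differences that come with MK2 cannot be told apart from differences between the populations or between single cultures.

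Lysosomes are acidic organelles in which hydrolases break down proteins, glycans and lipids that arrive by endocytosis, phagocytosis and autophagy. The vacuolar ATPase pumps protons into the lumen, membrane proteins protect the limiting membrane and export products and ions, and saposins and related cofactors present lipids to the hydrolases. TFEB, TFE3 and MITF are related basic helix-loop-helix factors that bind E-box sequences in the promoters of many of these genes and raise their transcription when they enter the nucleus. Macrophages are rich in lysosomes, and cathepsins also serve antigen processing there.

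Because these factors bind E-boxes, the promoter windows of RefSeq (build GRCm38.p6, 250 bases before to 50 after each annotated start) were searched for CACGTG and for the longer TCACGTGA, which contains it. Both read the same on either strand. Windows were found for 42 of the 48 genes, and *Ctsb*, *Ctsh*, *Npc1*, *Atp6v0d2*, *Atp6v1b2* and *Atp6v1h* had none. CACGTG was present for 15 of the 42 genes (35.7%), against 12.3% of the 9055 genes with a window and a mean of 10 or more and 8.09% of all 27025 genes with a window. TCACGTGA was present for 7 (16.7%), against 2.34% and 1.12%. The stretches that follow are those of the 7 genes with the longer word and of *Lamp1*, whose window held CACGTG 4 times, and are shown since they carry the sequence that these lysosomal promoters share. Each is given 5′ to 3′ on the strand of the gene with the match at its centre in capitals. Further matches within the stretches, another TCACGTGA in *Ctsa* and other CACGTG in *Lamp1*, are left in lower case. The windows of *Ctsd*, *Gla*, *Mcoln1*, *Cln3* and *Lamp1* also held matches outside the stretches, which are not shown.
*Ctsd*, chr7:142387895-142387950, minus strand: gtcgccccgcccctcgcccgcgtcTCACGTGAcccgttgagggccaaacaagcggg
*Ctsa*, chr2:164833736-164833791, plus strand: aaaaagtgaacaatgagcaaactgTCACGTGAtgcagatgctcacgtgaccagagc
*Gla*, chrX:134601169-134601224, minus strand: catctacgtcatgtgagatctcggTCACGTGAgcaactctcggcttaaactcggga
*Mcoln1*, chr8:3500449-3500504, plus strand: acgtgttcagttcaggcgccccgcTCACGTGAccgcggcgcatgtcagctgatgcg
*Cln3*, chr7:126583327-126583382, minus strand: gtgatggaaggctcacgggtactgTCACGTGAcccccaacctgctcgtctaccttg
*Atp6v0d1*, chr8:105566037-105566092, minus strand: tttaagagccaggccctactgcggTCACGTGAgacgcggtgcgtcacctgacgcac
*Atp6v1a*, chr16:44139360-44139415, minus strand: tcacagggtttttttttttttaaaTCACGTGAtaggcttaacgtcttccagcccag
*Lamp1*, chr8:13159108-13159163, plus strand: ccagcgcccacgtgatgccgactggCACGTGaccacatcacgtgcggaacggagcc

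Levels are DESeq2 normalized counts as deposited, which are read counts divided by a size factor for the library and rounded. They are given in the order UT and IL-1α-treated *GFP* cells, then UT and IL-1α-treated *MK2* cells. Comparisons are log2 ratios after adding a pseudocount of 1. The interval after a ratio is a 95% Clopper-Pearson interval that takes normalized counts for reads and covers counting error only. The totals of the 4 libraries lay between 24891906 and 25733071 normalized counts. *Mapkapk2*, the MK2 gene, was at 561, 1585, 38357 and 38141, which puts the lines the way round that the labels give. All 10 macrophage markers were detected, with summed levels of 108326, 122951, 108682 and 112358. Fibroblast, neutrophil and lymphocyte markers summed to at most 8 per list in any library, and the 5 dendritic cell markers to 26, 21, 106 and 117, nearly all from *Zbtb46*.

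The lysosomal genes were abundant and differed between the lines mostly by small amounts. Together the 48 genes took 2.12 and 2.02% of the normalized counts in *GFP* cells and 2.30 and 2.30% in *MK2* cells, and the proteases alone took 1.01, 0.978, 1.22 and 1.22%. Per kilobase of annotated exon, *Ctsd* had the highest mean over the libraries (31343 normalized counts per kb). It was followed by *Ctsk* (28241), *Psap* (23408), *Ctsz* (21064), *Cd68* (12998) and *Ctsb* (10908). The lowest means per kb among the 46 genes were those of *Tfeb* (54.3), *Ids* (54.9) and *Atp6v0d2* (91.1). In bulk RNA, fewer cells of a type and less RNA per cell cannot be told apart.

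**Figure D1:**
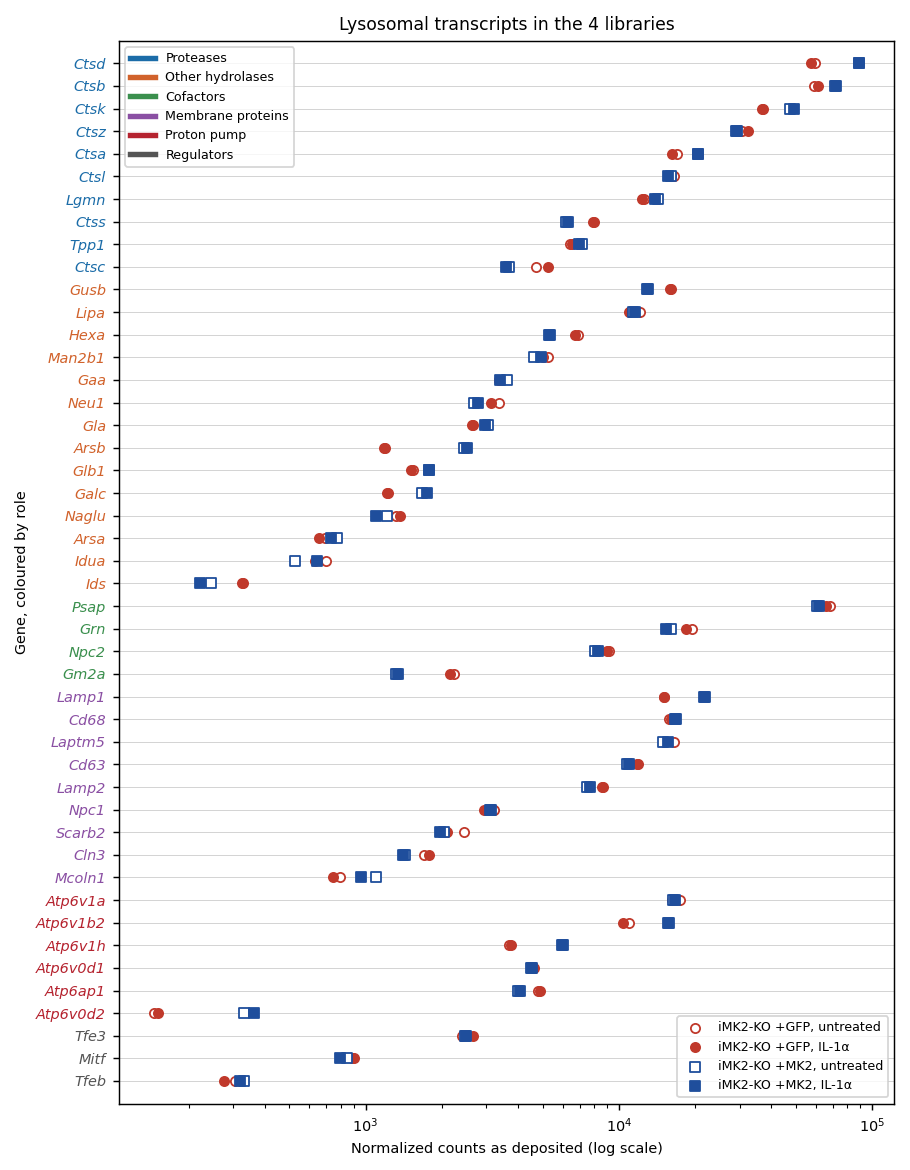
Normalized counts (log scale) of the 46 lysosomal genes with a mean of at least 10, grouped by role. Circles stand for *GFP* and squares for *MK2* cells, open for UT and filled for IL-1α, with 1 library per symbol and thus no error bar. Open and filled symbols of a line nearly coincide for most genes, whereas circles and squares stand clearly apart for genes such as *Ctsd*, *Arsb*, *Gm2a*, *Lamp1* and *Atp6v0d2*.

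In UT cells, 1 of the 46 genes was at least 1.5-fold higher in *GFP* than in *MK2* cells (*Gm2a*) and 3 were at least 1.5-fold lower (*Arsb*, *Atp6v0d2* and *Atp6v1h*). Over all 12483 genes, 7.33% were at least that much higher and 10.3% lower. After IL-1α the same gene was higher and 5 genes were lower, since *Ctsd* and *Atp6v1b2* were added to the 3 of UT cells, against 8.41% higher and 11.2% lower over all genes. All 46 genes had means of at least 200. Among the 9084 genes of the table with such means, a limit chosen after the values had been seen, the shares were 3.64% higher and 5.11% lower in UT cells and 5.02% and 5.41% after IL-1α. The median log2 ratio of the 46 genes was 0.05 in UT cells and -0.03 after IL-1α (0.02 and 0.03 over all genes). The median size of the log2 ratio, without its sign, was 0.23 and 0.20 (0.22 and 0.23 over all genes). At means of at least 200, the median over the table was 0.03 and 0.05 and the median size 0.18 and 0.19. Single genes lay on either side.

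Most genes kept their side in both comparisons of the lines, which share no library but come from the same 2 populations. Of the 46 genes, 40 had the same sign in both, and 6 changed it (*Lipa*, *Idua*, *Laptm5*, *Npc1*, *Atp6v1a* and *Tfe3*). The number of all genes that kept their sign was not computed, so 40 of 46 is not read as particular to the lysosomal genes. Beyond counting error, 18 of the 46 genes were higher in *GFP* cells and 17 were lower in both comparisons, against 28.9% and 21.4% of all genes with means of at least 200. Counting intervals narrow as levels rise, and these shares are not matched for level. The counts are therefore not read as particular to the lysosomal genes. Both *GFP* libraries lay above both *MK2* libraries for 20 genes and below them for 19, where 37.2% and 31% of all genes did so (42.5% and 30.3% at means of at least 200). With *Gapdh* as the reference for scaling, these counts became 15 and 21. Some macrophage markers moved with the lines too. *Mrc1*, the mannose receptor, was at 273, 282, 1499 and 1488, *Mertk* at 421, 364, 1093 and 1168, and *Cd14* at 3652, 8072, 1962 and 2250. Of the 10 macrophage markers, 1 was at least 1.5-fold higher and 4 were lower in UT *GFP* cells, and the part of that shift in the lysosomal values was not tested.

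**Figure D2:**
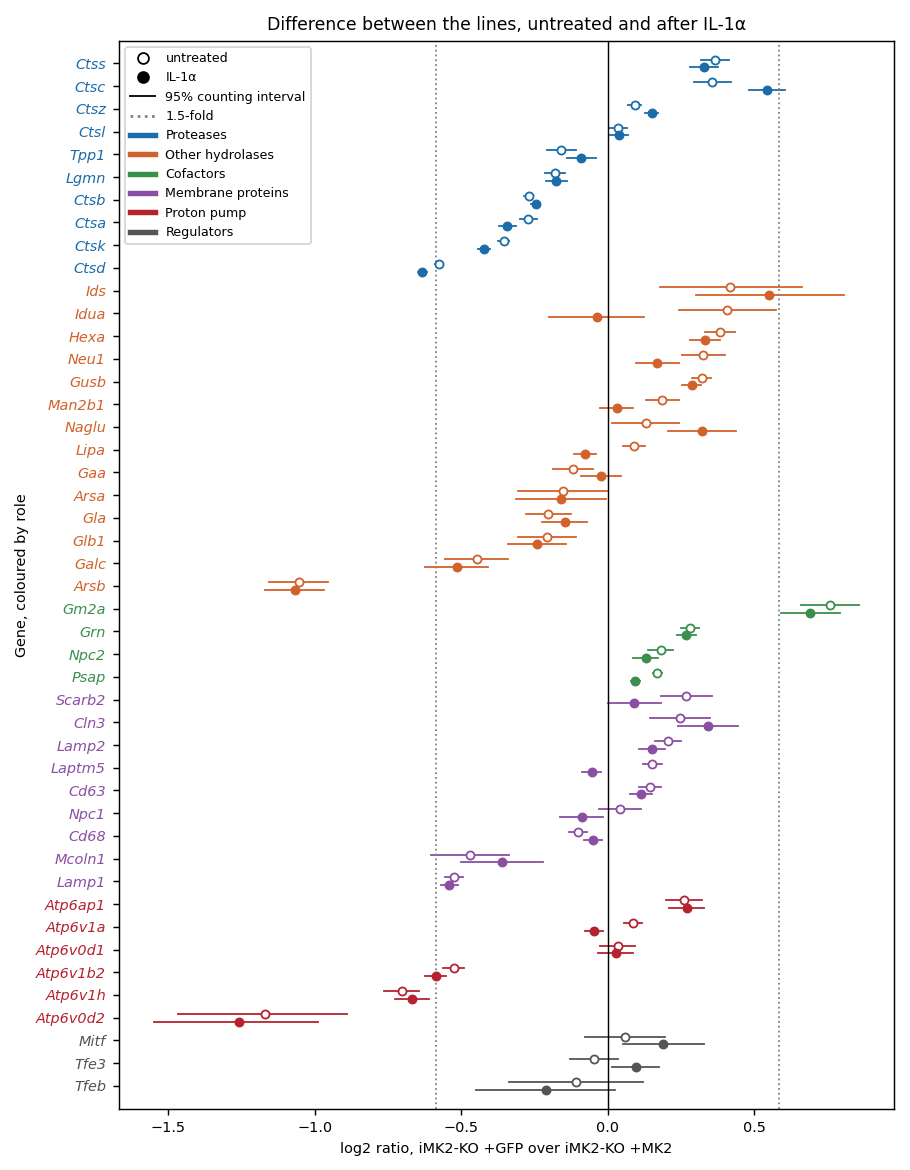
Log2 ratio of *GFP* over *MK2* cells for the 46 genes, sorted within each role. Open points are UT and filled points IL-1α-treated cells, lines are 95% counting intervals, and dotted lines mark 1.5-fold. *Arsb* and *Atp6v0d2* lie below -1 in both comparisons, *Gm2a* is the gene beyond 1.5-fold on the other side, and in most genes both points lie close together.

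The proteases were split. The cathepsins are named by letter and are aspartic, cysteine or serine proteases of the lysosome. Of the 10 proteases that were detected, which include *Lgmn* and *Tpp1*, 4 were higher and 6 lower in *GFP* cells in both comparisons, each beyond counting error, although the small difference of *Ctsl* changed sign with *Gapdh* scaling. *Ctsd* (ENSMUSG00000007891.17), which encodes the aspartic protease cathepsin D, was at 59598, 57340, 88875 and 88936 normalized counts. The log2 ratio between the lines was -0.58 (interval -0.59 to -0.56) in UT cells and -0.63 (-0.65 to -0.62) after IL-1α, or 1.49-fold and 1.55-fold lower. The values within a line were nearly equal, and those of the lines did not overlap. A second gene model that overlaps its exons on the same strand, *Gm49369*, was at 671, 1090, 1251 and 1862 and reached at most 2.53% of the mean of *Ctsd*.

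*Ctsk* and *Ctss* are neighbours on chromosome 3, at 95406567 to 95416673 and 95434097 to 95463714 in the coordinates of the table, and encode cysteine proteases. They differed between the lines in opposite directions. *Ctsk* was at 37221, 36718, 47639 and 49225, which gives log2 ratios of -0.36 (-0.38 to -0.34) and -0.42 (-0.44 to -0.40). *Ctss*, whose product trims the invariant chain of MHC class II, was at 8013, 7897, 6214 and 6291, with ratios of 0.37 (0.32 to 0.41) and 0.33 (0.28 to 0.38). The libraries of the lines did not overlap for either gene. The build of these coordinates is uncertain, because the submitters' processing notes name GRCm38 but 1494 of 52080 genes matched by Ensembl ID have the same start and end in a GRCm38 annotation.

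Cathepsin K is best known from osteoclasts, as is the *Atp6v0d2* subunit treated with the proton pump below. The 8 osteoclast markers summed to 598, 588, 610 and 574, of which *Nfatc1*, which macrophages also express, gave 577, 555, 534 and 526. *Acp5* was at 8, 8, 4 and 2, *Calcr* at 0, 1, 0 and 0, *Ocstamp* at 6, 8, 6 and 6, and *Oscar* at 4, 4, 4 and 3. *Dcstamp* (3, 10, 40 and 17), *Mmp9* (0, 2, 9 and 10) and *Itgb3* (0, 0, 13 and 10) were low but higher in *MK2* cells, the side on which *Ctsk* and *Atp6v0d2* were higher. Their part in the values of these genes was not tested.

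Among the other proteases, *Ctsc*, whose product activates granule serine proteases, was higher in *GFP* cells (4715 and 5242 against 3682 and 3595). Its log2 ratio was 0.36 (0.29 to 0.42) in UT cells and 0.54 (0.48 to 0.61) after IL-1α. *Ctsb* (59205, 61027, 71418 and 72356) and *Ctsa* (16978, 16201, 20501 and 20544), the latter also known as the protective protein of beta-galactosidase and neuraminidase, were lower, each with a log2 ratio of -0.27 in UT cells. *Lgmn*, asparaginyl endopeptidase, and *Tpp1*, tripeptidyl peptidase, were lower by less (ratios between -0.18 and -0.09 over both comparisons). *Ctsz* was slightly higher (0.09 and 0.15) and *Ctsl* nearly equal (16446, 16008, 16063 and 15596).

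Of the 14 other hydrolases, 8 were above and 6 below in UT *GFP* cells. *Arsb* (ENSMUSG00000042082.8, chromosome 13), the arylsulfatase that removes sulfate from dermatan and chondroitin sulfate, stood farthest from equality in both comparisons. It was at 1183, 1197, 2458 and 2512. The log2 ratio was -1.05 (-1.16 to -0.95) in UT cells and -1.07 (-1.17 to -0.97) after IL-1α, a 2.08-fold and a 2.10-fold difference. *Galc*, which cleaves galactosylceramide, was next in UT cells (1222, 1219, 1666 and 1744), with ratios of -0.45 (-0.55 to -0.34) and -0.52 (-0.62 to -0.41). In both genes the *GFP* libraries were low and the lines did not overlap.

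Enzymes of the same substrate class differed in both directions. Besides *Arsb*, the members that degrade glycosaminoglycans include *Ids*, *Idua*, *Gusb* and *Naglu*, and these 4 were above in UT *GFP* cells. *Glb1*, which also acts on keratan sulfate, was lower (-0.21 and -0.24). *Ids*, the iduronate sulfatase, was at 329, 324, 246 and 221 (0.42, 0.18 to 0.66, in UT cells and 0.55, 0.30 to 0.81, after IL-1α). *Gusb*, beta-glucuronidase, was at 16141, 15968, 12933 and 13097 (0.32 and 0.29). *Naglu*, which acts on heparan sulfate, was at 1324, 1370, 1211 and 1097 (0.13 and 0.32). *Idua*, alpha-iduronidase, was at 697, 629, 525 and 646, so its difference in UT cells (0.41, 0.24 to 0.58) was not detectable after IL-1α (-0.04, -0.20 to 0.12). Exons of *Idua* overlap those of *Dgkq* on the opposite strand. *Dgkq* was at 578, 702, 659 and 534 and thus went the other way in every step, and since the strand setting of the counting is not given in the sources used here, reads of these 2 genes cannot be told apart.

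The remaining hydrolases act mainly on glycolipids, glycoproteins, glycogen and lipid esters, and none of them reached 1.5-fold. *Hexa*, the alpha subunit of beta-hexosaminidase, was at 6921, 6722, 5307 and 5342 (0.38, 0.33 to 0.43, and 0.33, 0.28 to 0.38). Both *GFP* libraries were above both *MK2* libraries. *Neu1*, a sialidase, and *Man2b1*, an alpha-mannosidase, were higher in UT *GFP* cells (0.33 and 0.19) and less so after IL-1α (0.17 and 0.03, the latter with a sign that depended on the scaling). *Gla* and *Glb1*, both galactosidases, *Arsa*, another arylsulfatase, and *Gaa*, the glycogen-degrading glucosidase, had ratios between -0.24 and -0.02. *Glb1* shares exon sequence on the same strand with *Tmppe*, which reached 32.8% of its mean. *Lipa*, lysosomal acid lipase, changed side (0.09 and -0.08).

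The 4 cofactors were all higher in *GFP* cells in both comparisons, each beyond counting error. With *Gapdh* scaling the sign of *Psap* after IL-1α was reversed, whereas that of the other 3 was not. *Gm2a* (ENSMUSG00000000594.8, chromosome 11), the activator that presents GM2 ganglioside to beta-hexosaminidase, was at 2231, 2162, 1319 and 1339. Its log2 ratios were 0.76 (0.66 to 0.86) and 0.69 (0.59 to 0.79), or 1.69-fold and 1.61-fold. *Grn*, the progranulin gene, was at 19527, 18453, 16078 and 15322 (0.28 and 0.27), *Npc2*, the luminal cholesterol carrier, at 9127, 9024, 8058 and 8253 (0.18 and 0.13), and *Psap*, the saposin precursor, at 68256, 66063, 60710 and 61893 (0.17 and 0.09). *Gm2a* and *Hexa*, which act on the same substrate, were thus both higher in *GFP* cells.

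None of the 9 membrane proteins reached 1.5-fold, although with *Gapdh* scaling *Lamp1* did so after IL-1α (-0.64). *Lamp1* and *Lamp2*, the main glycoproteins of the limiting membrane, stood on opposite sides. *Lamp1* was at 15101, 15102, 21734 and 21972, with ratios between the lines of -0.53 (-0.56 to -0.50) untreated and -0.54 (-0.57 to -0.51) after IL-1α. *Lamp2* was at 8640, 8580, 7490 and 7721, with ratios of 0.21 (0.16 to 0.25) and 0.15 (0.11 to 0.20). *Mcoln1*, the calcium channel TRPML1, was lower in *GFP* cells (796 and 747 against 1103 and 959, ratios of -0.47 and -0.36). *Cln3*, *Cd63* and *Scarb2*, the receptor that carries glucocerebrosidase to the lysosome, were higher (0.25, 0.14 and 0.27 in UT cells). The values of *Cln3* are uncertain, because *Apobr* overlaps its exons on the opposite strand at 1469, 1575, 1146 and 1038, up to 99.8% of the mean of *Cln3*. *Cd68* was slightly lower (-0.10 and -0.05), and *Laptm5* and *Npc1*, the membrane cholesterol transporter, changed side between UT and IL-1α-treated cells. *Rmc1* overlaps exons of *Npc1* on the opposite strand, at 1198, 1002, 999 and 990, up to 38.65% of the mean of *Npc1*.

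Of the 6 proton pump subunits, 2 were at least 1.5-fold lower in UT *GFP* cells and 3 after IL-1α. Over all 12483 genes, the shares were 10.3% and 11.2%, and at means of at least 200 they were 5.11% and 5.41%. The subunit that passed only after IL-1α was *Atp6v1b2*, at 1.502-fold against 1.44-fold in UT cells. With so few subunits, these counts are not read as particular to the pump. *Atp6v0d2* (ENSMUSG00000028238.7, chromosome 4), an alternative d subunit of the membrane sector, was at 146, 151, 330 and 363. Its log2 ratio was -1.17 (-1.47 to -0.89) in UT cells and -1.26 (-1.55 to -0.99) after IL-1α, which was 2.25-fold and 2.39-fold lower. *Atp6v0d1*, the ubiquitous d subunit, was nearly equal at 4588, 4622, 4482 and 4535 (0.03 in both, with a sign that depended on the scaling). Per kilobase, the d1 transcript was the more abundant of the pair in every library, at 2500 to 2578 normalized counts per kb against 53.8 to 133.7 for d2.

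In the catalytic sector, *Atp6v1h* (ENSMUSG00000033793.13, chromosome 1), a regulatory subunit, was at 3693, 3768, 6012 and 5988. The ratios were -0.70 (-0.76 to -0.64) and -0.67 (-0.73 to -0.61), or 1.63-fold and 1.59-fold lower. *Atp6v1b2*, the B subunit that most cells use, was at 10980, 10414, 15808 and 15640, with ratios of -0.53 (-0.56 to -0.49) and -0.59 (-0.62 to -0.55). *Atp6v1a*, which forms the catalytic hexamer with it, was at 17374, 16149, 16367 and 16680 (0.09 and -0.05). *Atp6ap1*, an accessory subunit, was higher at 4812, 4893, 4016 and 4061 (0.26 and 0.27). Subunits of the pump were thus at unequal ratios between the lines, from -0.70 (*Atp6v1h*) to 0.26 (*Atp6ap1*) in UT cells. *Atp6v0d2*, the alternative to *Atp6v0d1*, lay outside this range at -1.17.

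The 3 regulators differed little. *Tfeb* was at 306, 276, 330 and 320, and its interval held 0 in both comparisons (-0.11, -0.34 to 0.12, and -0.21, -0.45 to 0.02). *Tfe3* was at 2397, 2665, 2477 and 2496 (-0.05 and 0.09, the second with a sign that depended on the scaling) and *Mitf* at 882, 901, 847 and 790 (0.06, likewise of unsure sign, and 0.19). At these levels a difference of *Tfeb* between the lines was not detectable. Transcript levels say nothing of the nuclear entry of these factors.

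The genes with the E-box word CACGTG, of which 8 are shown above with their stretches, stood on both sides of the comparison. More of them were below than above in UT *GFP* cells, and the reverse held for genes without the word. Of the 14 detected genes with CACGTG, 5 were above and 9 below in UT *GFP* cells, with a median log2 ratio of -0.17 and a range from -0.58 (*Ctsd*) to 0.25 (*Cln3*). Of the 27 without it, 20 were above and 7 below, with a median of 0.18 and a range from -1.05 (*Arsb*) to 0.76 (*Gm2a*). Neither *Arsb* nor *Gm2a*, the 2 genes past 1.5-fold in UT cells that had a window, held the word in it. This is a description of the windows, with no test, and a match is not a shown binding site. Genes with and without the word were not compared over the whole table, so these counts are not read as particular to the lysosomal genes.

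After 1 h of IL-1α, none of the 46 genes reached 1.5-fold in either line. In *GFP* cells 4.7% of all genes were at least 1.5-fold higher and 4.29% lower, and in *MK2* cells 2.72% and 2.92%. At means of at least 200, where all 46 genes lie, the shares were 2.12% and 0.594% in *GFP* cells and 0.286% and 0.264% in *MK2* cells, so that 0 of 46 is close to the share of the table. The median size of the response, without its sign, was 0.04 and 0.03 on the log2 scale for the lysosomal genes, 0.11 and 0.08 for all genes and 0.08 and 0.06 for those with means of at least 200. In the plain values, 39 of the 46 genes were within 10% of the UT level in *GFP* cells and 42 in *MK2* cells. This count was not made over all genes and so is not read as particular to the lysosomal genes. Beyond counting error, 5 genes were higher and 13 lower in *GFP* cells, against 24.6% and 13.1% of all genes with means of at least 200. In *MK2* cells 6 were higher and 5 lower, against 13.6% and 8.84%. These shares too are not matched for level, so the counts are not read as particular to the lysosomal genes. In *GFP* cells the sign of 10 genes, all with small ratios, depended on the scaling.

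The largest response of a lysosomal gene in *GFP* cells was that of *Scarb2*, from 2450 to 2096 (-0.23, -0.31 to -0.14), against 2034 to 1968 in *MK2* cells (-0.05, -0.14 to 0.04). *Tfe3* went from 2397 to 2665 (0.15, 0.07 to 0.23) and *Ctsc* from 4715 to 5242 (0.15, 0.10 to 0.21) in *GFP* cells, where *MK2* cells were at 0.01 and -0.03. In *MK2* cells the largest were *Idua* (0.30, 0.13 to 0.47), whose overlap with *Dgkq* is given above, and *Mcoln1*, from 1103 to 959 (-0.20, -0.33 to -0.08). *Grn* was lower after IL-1α in both lines (-0.08 and -0.07, each beyond counting error). *Lamp1* was at 15101 and 15102 in *GFP* cells and a response was not detectable. The median difference of the responses, *GFP* minus *MK2*, was -0.03 over the 46 genes and 0.01 over all genes, and the former moved to -0.06 with scaling to library totals and to -0.08 with *Gapdh*.

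**Figure D3:**
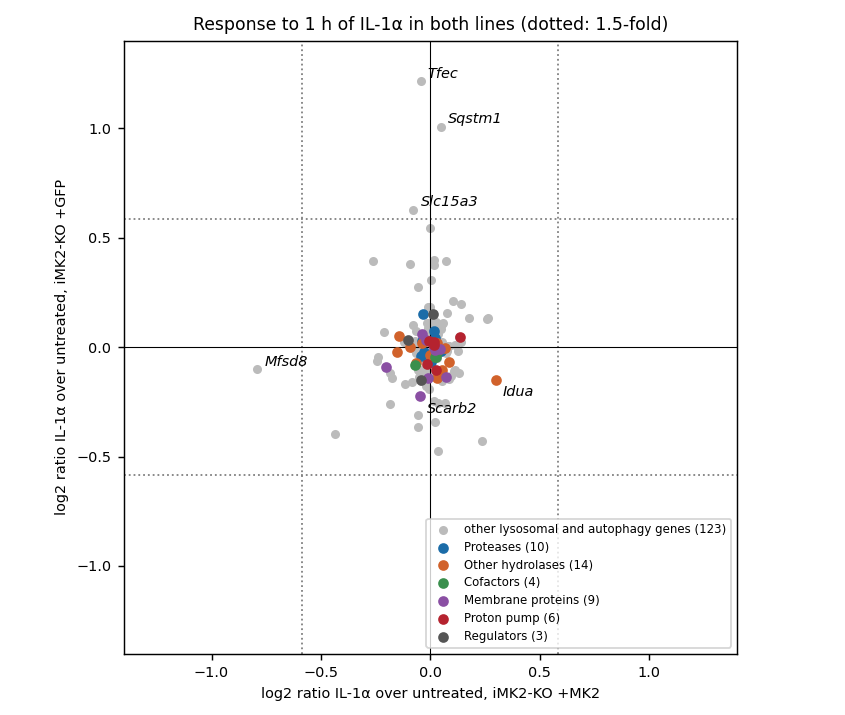
Log2 response to 1 h of IL-1α in *MK2* (horizontal) and *GFP* cells (vertical), with 1 library per condition. Coloured points are the 46 lysosomal genes and grey points 123 further lysosomal and autophagy genes whose mean reached 50 and which had no library under 10 normalized counts. The coloured points crowd around 0 inside the dotted 1.5-fold lines, and *Tfec*, *Sqstm1* and *Slc15a3* lie outside these lines in *GFP* cells.

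Further genes of the same pathway were taken from 7 lists with 141 genes, of which 126 had a mean of at least 10. Between the lines, 7 of these were at least 1.5-fold higher and 10 lower in UT *GFP* cells, and 11 and 8 after IL-1α. Over all 12483 genes, 7.33% were at least that much higher and 10.3% lower in UT cells, and 8.41% and 11.2% after IL-1α. Counts of single lists are to be set against the same shares. Among 34 further hydrolases, 2 were higher and 5 lower in UT cells. *Ctse*, the second aspartic cathepsin of these lists, was at 981, 971, 231 and 239 (2.08 and 2.02), on the other side from *Ctsd*. *Sgsh*, a heparan sulfatase, was at 99, 91, 393 and 346 (-1.98 and -1.92), and *Hyal1*, a hyaluronidase, at 124, 92, 398 and 469 (-1.67 and -2.34). *Ctso* was at 61, 55, 146 and 155 (-1.25 and -1.48). Hence glycosaminoglycan enzymes stood on both sides, with *Arsb*, *Sgsh* and *Hyal1* among those lower in *GFP* cells and *Gusb* and *Ids* among those higher.

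Of 13 further proton pump subunits, none was higher and 2 were lower in UT cells. *Atp6v0a1*, an a subunit of the membrane sector, was at 1584, 1671, 3955 and 3919 (-1.32 and -1.23). *Tcirg1*, the a3 subunit of lysosomes, named here after its values had been seen, was at 10078, 9179, 7947 and 8354 (0.34 and 0.14). The remaining gene past 1.5-fold was *Atp6v1g2*, at 18, 35, 38 and 31. Of 28 further membrane proteins, 2 were higher and 2 lower in UT cells and 5 and 2 after IL-1α. *Laptm4b*, a relative of *Laptm5*, was at 5, 2, 1939 and 1974 and so was near 0 in both *GFP* libraries. *Mcoln3*, a channel related to *Mcoln1* and named after its values had been seen, differed the other way, at 4796, 4786, 2889 and 2955 (0.73 and 0.70).

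None of the 10 genes of enzyme sorting, which include the mannose 6-phosphate receptors, reached 1.5-fold between the lines (range -0.47 to 0.23 in UT cells). Of 18 genes of nutrient sensing at the lysosome, 1 was higher and 1 lower in UT cells. Both encode Rag GTPases, since *Rragb* was at 532, 471, 195 and 192 (1.44 and 1.29) and *Rragd* at 1, 0, 264 and 358. Chosen after their values had been seen were the genes that follow. The paralogs *Rraga* and *Rragc* differed by less (0.31 and 0.04 in UT cells). Of 20 autophagy genes, 1 was higher in UT cells (*Wipi1*, at 61, 62, 40 and 38) and none was lower. Of the 3 detected cystatins, which inhibit cathepsins, *Cst7* was at 577, 572, 377 and 396 (0.61 and 0.53), *Cst3* at ratios of 0.26 and 0.27 and *Cstb* at -0.07 and -0.08.

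**Figure D4:**
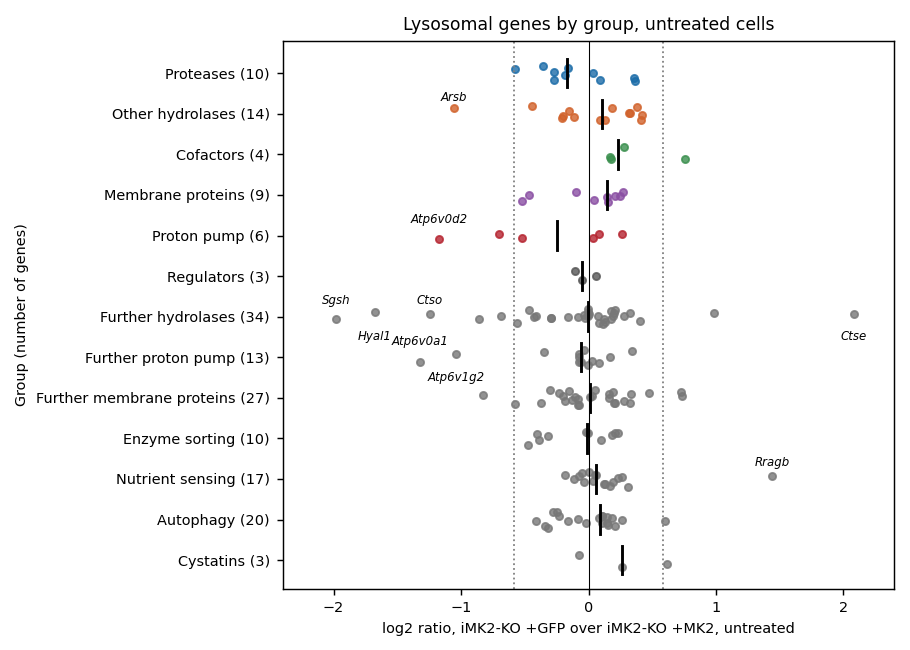
Log2 ratio of *GFP* over *MK2* cells, UT, for each group of lysosomal genes (coloured) and each further list (grey), with the number of genes in parentheses. Each point is 1 gene from 1 library per line, black bars are medians and dotted lines mark 1.5-fold, and further genes under 10 normalized counts in any library are not drawn. Medians lie between -0.25 and 0.26, and genes at least 2-fold apart, which are named, lie mostly on the side of lower levels in *GFP* cells. Over all 12483 genes, 3.51% were at least 2-fold higher and 5.26% lower in UT cells. The whole table thus leans the same way, and the lean is not read as particular to these genes.

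To IL-1α, 4 of the 126 further genes were at least 1.5-fold higher and 2 lower in *GFP* cells, and 0 and 1 in *MK2* cells. Over all genes, 4.7% were at least that much higher and 4.29% lower in *GFP* cells, and 2.72% and 2.92% in *MK2* cells. The further genes past 1.5-fold are named here after their values had been seen. *Tfec*, a relative of TFEB found in macrophages, went from 475 to 1104 in *GFP* cells (1.22) and from 457 to 443 in *MK2* cells (-0.04). *Sqstm1*, the autophagy receptor p62, went from 5955 to 11976 (1.01) and from 5255 to 5430 (0.05). *Slc15a3*, a lysosomal peptide transporter, went from 2435 to 3764 (0.63) and from 2010 to 1905 (-0.08). For each of these 3 genes the UT levels of the lines were within 1.5-fold of each other, and the IL-1α-treated *GFP* library was the high one in each. The fourth was *Atp6v1g2*, from 18 to 35, and the 2 lower ones were *Laptm4b* and *Rragd*, both at 5 or fewer in these cells. In *MK2* cells *Mfsd8* went from 141 to 81 (-0.79).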

How the data were processed

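The labels describe poly(A) RNA libraries with strand information and paired reads, whereas the study's methods state ribosomal depletion and single reads, and which applies is not known. The authors deposited 1 table with 1 score per gene and library, which the paper's heatmaps name DESeq2 normalized counts, rounded to whole numbers. The processing notes of the authors name DESeq2 and GRCm38. Column names are those of salmon output, and versions and strand setting are not given in the sources used here. The comparisons were written to allow for raw counts, and since the table holds normalized counts these were used as deposited, with no count model. The reads behind them are unknown, so intervals are approximate.

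Log2 ratios (pseudocount 1, minimum mean 10, threshold 1.5-fold) were computed with Python 3.11.15, NumPy 2.4.6, pandas 2.3.3 and SciPy 1.17.1, after a test on simulated data, and drawn with Matplotlib 3.10.9. Columns were matched by library name. Levels per kb used the union of exons in GENCODE M21, and exon overlaps came from the same annotation. The 48 genes, 7 pathway lists and 6 marker lists (macrophage, osteoclast, fibroblast, dendritic cell, neutrophil, lymphocyte) were chosen with earlier results of these data known. Named are genes past 1.5-fold, examples among the other lysosomal genes, *Mapkapk2*, and up to 5 genes per pathway list with a mean of at least 50 that were at least 2-fold apart in both comparisons of the lines. Alternatives were pseudocounts of 0.5 and 5, scaling to library totals, to a trimmed mean of log ratios (30% trimmed from each side) or to *Gapdh*, a 2-fold threshold, and minimum means of 0 and 50.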

Additional observations from a re-analysis of the deposited data

Results flagged for a closer look

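In 3 lysosomal genes the IL-1α response went in opposite directions in the lines, each beyond counting error. The difference itself was not tested, as there was 1 library per condition. Such genes were not counted over the whole table, so their number is not read as particular to the lysosomal genes. *Laptm5*, a lysosomal membrane protein of blood cells, went from 16561 to 15077 in *GFP* cells and from 14909 to 15668 in *MK2* cells. The log2 responses were -0.14 and 0.07, a difference of -0.21. *Man2b1* went from 5272 to 5024 and from 4633 to 4920, with responses of -0.07 and 0.09 and a difference of -0.16. *Psap* went from 68256 to 66063 and from 60710 to 61893, with responses of -0.05 and 0.03 and a difference of -0.075. All 3 differences are under 1.5-fold.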

How the results depend on the processing

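No paired analysis was possible because there was 1 library per condition and the labels give no replicate numbers, and leaving out a library would leave a comparison without 1 of its sides. The counts of lysosomal genes past 1.5-fold in the 4 comparisons, and the median difference of the responses, were recomputed under 8 other settings, which gave 39 values. None reversed, and 36 were within the limits for a similar value (1.5 times for a count). Among these 36, the count after IL-1α went from 6 to 8 with *Gapdh*, where *Lamp1* (-0.64) and *Galc* (-0.62) also passed 1.5-fold, and the median difference of the responses went from -0.03 to -0.06 with library totals and -0.08 with *Gapdh*. With a 2-fold threshold in place of 1.5-fold, 2 genes differed between the lines in UT cells (4 at 1.5-fold) and 2 after IL-1α (6 at 1.5-fold). In both cases these were *Arsb* and *Atp6v0d2*. With no minimum mean, 1 gene counted as a responder in *MK2* cells, which was *Ctsh* at 1 and 0 normalized counts. Of 60 values under alternatives of the 6 genes past 1.5-fold, 58 stayed on the same side of 1.5-fold. The other 2 were those of *Ctsd* in UT cells, which passed 1.5-fold with the trimmed mean (-0.59) and with *Gapdh* (-0.63). *Gapdh* scaling lowered the median of all genes after IL-1α from 0.03 to -0.07, so that ratios under about 0.1 carry no firm sign. Under at least 1 of the 3 other scalings the sign between the lines changed for 4 lysosomal genes in UT cells (*Ctsl*, *Npc1*, *Atp6v0d1* and *Mitf*) and for 6 after IL-1α (*Ctsl*, *Man2b1*, *Psap*, *Scarb2*, *Atp6v0d1* and *Tfe3*).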
